A study of Mus musculus with 2 samples.

Results

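The 10 genes described here carry MHC class I processing and presentation: B2m, H2-K1, H2-D1, Tap1, Tap2, Tapbp, Psmb8, Psmb9, Psmb10 and Nlrc5. They were taken by symbol from the 32285 genes of the deposited count matrices, and all 10 were found. They were followed across the leukocyte types of mouse pancreatic islets in 2 single-cell libraries. NOD is a mouse strain that develops autoimmune diabetes. Islets from 12-week-old females were dispersed, live CD45+CD31- cells were sorted, and each group gave 1 droplet library read from the 3′ end of transcripts. The groups were WT NOD and NOD.Cxcl16-/-, the same strain with both alleles of the chemokine gene Cxcl16 disrupted. The number of mice behind each library was not given in the sources used here. With 1 library per group there is no replicate error and no test: genotype, mouse, sort and library cannot be told apart, and every interval below is a 95% interval that covers counting error only.

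In class I presentation, the proteasome cuts cytosolic proteins into peptides, and interferon replaces its catalytic subunits by the immunoproteasome subunits Psmb8, Psmb9 and Psmb10. The Tap1-Tap2 transporter moves peptides into the endoplasmic reticulum, where tapasin (Tapbp) holds the transporter to newly made heavy chains. H2-K1 and H2-D1 are the classical heavy chains of the mouse, B2m is the light chain that both need to reach the surface, and Nlrc5 is a transactivator of class I genes. In NOD islets, CD8 T cells recognise beta cell peptides on class I molecules.

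By the GENCODE annotation of GRCm38, 7 of the 10 genes lie on chromosome 17: H2-K1 (33996017 to 34000347), H2-D1 (35262730 to 35267499), Tapbp (33915899 to 33929292), Psmb9 (34181987 to 34187764), Tap1 (34187553 to 34197225), Psmb8 (34197721 to 34201454) and Tap2 (34203527 to 34216321). B2m lies on chromosome 2 (122147686 to 122153083). Psmb10 (105935735 to 105938444) and Nlrc5 (94434356 to 94527272) lie on chromosome 8. Tap1 and Psmb9 start next to each other and run in opposite directions, so their RefSeq promoter windows share 275 of 300 bases. The heavy chain genes have close paralogs, and the NOD haplotype differs from the reference used for counting. H2-K1 and H2-D1 levels, and their ratio, are therefore uncertain as levels.

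RefSeq promoter windows (GRCm38.p6, 250 bases before to 50 after the start site) were at hand for 8 of the 10 genes, all but Tap2 and Nlrc5. The upstream stretches of B2m and H2-K1 are shown because these chains pair at the surface and their levels went together across the 10 cell types described below (r = 0.874 and 0.742 in the 2 libraries). Each is written 5′ to 3′ on the gene's strand from position -200 to -2, with letters that matched a searched motif in capitals.
B2m: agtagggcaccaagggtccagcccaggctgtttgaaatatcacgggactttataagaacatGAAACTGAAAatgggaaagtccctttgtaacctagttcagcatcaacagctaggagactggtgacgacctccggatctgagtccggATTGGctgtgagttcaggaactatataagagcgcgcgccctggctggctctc
H2-K1: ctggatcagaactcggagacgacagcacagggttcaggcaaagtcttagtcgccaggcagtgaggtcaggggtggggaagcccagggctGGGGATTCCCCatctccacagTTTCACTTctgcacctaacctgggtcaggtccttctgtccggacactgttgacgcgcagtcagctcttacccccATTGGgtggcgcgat
The B2m stretch is chr2:122147487-122147685 on the + strand, inside the annotated span of Patl2 on the other strand and outside its exons. The H2-K1 stretch is chr17:34000349-34000547 on the - strand and overlaps no annotated gene.

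The motifs were searched on both strands of all 32851 windows of 300 bases. The interferon-stimulated response element (GAAA, any 2 bases, GAAA) was in 3.44% of windows and, among the 8 genes, in that of B2m at -139. The shorter interferon regulatory factor core AANNGAAA, which overlaps it, was in 23.9% of windows and in those of B2m, H2-K1 and H2-D1. The inverted CCAAT box ATTGG was in 37.4% of windows and in 6 of the 8, all but Psmb8 and Psmb10. The Tap1 and Psmb9 matches are the same letters, in the stretch that their windows share. The gamma-activated site TTCNNNGAA was in 8.3% of windows and in that of Psmb8 at -97. The enhancer A letters of H2-K1, GGGGATTCCCC, known from class I promoters as an NF-kappaB site, were in 0.0304% of windows (10 windows) and in those of H2-K1 and H2-D1. The core and the enhancer A letters were added to the search after the H2-K1 stretch had been read. A match describes letters and does not show that a factor binds there.

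The WT NOD library held 13859 barcodes with 93553185 UMIs (unique molecular identifiers, each a counted molecule), and the NOD.Cxcl16-/- library held 10554 barcodes with 98681133 UMIs. After removal of barcodes with few genes, much mitochondrial RNA or a high doublet score, 10959 and 9358 remained, and marker gates named 6307 and 6325 of them. Cells in no gate numbered 4607 and 2979, with median depths of 2738 and 4248 UMIs, and were not used. The libraries share 45 barcode sequences. At least 50 cells in both libraries were found in 10 gates: CD8 T (1974 and 1330 cells), CD4 T (1288 and 1275), regulatory T or Treg (279 and 421), gamma-delta T (174 and 123), NK (87 and 75), B (1816 and 2067), plasma cell (61 and 109), macrophage (84 and 203), migratory DC, a dendritic cell type marked by Ccr7 and Fscn1 (73 and 102), and other myeloid (300 and 365). Cxcl16 transcript was not lost in the NOD.Cxcl16-/- library. Over all barcodes, which mix cell types, it was at 103 CPM (counts per 1000000 UMIs) in WT NOD and at 102 CPM in the other library. In macrophages it was at 874 and 498 CPM, in migratory DCs at 768 and 446 CPM, and in other myeloid cells at 282 and 242 CPM. Among the 10 gates only B cells (11.1 and 15.0 CPM) and plasma cells (2.24 and 26.6 CPM) went the other way. Which exons the allele lacks is not given in the sources used here, so a 3′ count does not check the genotype, and "the library labelled NOD.Cxcl16-/-" is used below.

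All 10 genes were read in every one of the 10 gates in both libraries. Together they took from 0.570% of all UMIs (B cells, library labelled NOD.Cxcl16-/-) to 1.34% (migratory DCs, WT NOD). Migratory DCs and macrophages held the highest level of 9 of the 10 genes, and Nlrc5 was the exception. The order of the 10 cell types was similar in the libraries, with Spearman's rho from 0.818 (Nlrc5) to 0.988 (Tap1) over 10 types, given as a description of types that share a library. Each UMI is a molecule counted at the 3′ end, so no length correction was made. Whether reads in introns were counted is not given in the sources used here. Levels of different genes set side by side, and their ratios, are therefore uncertain.

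**Figure D1:**
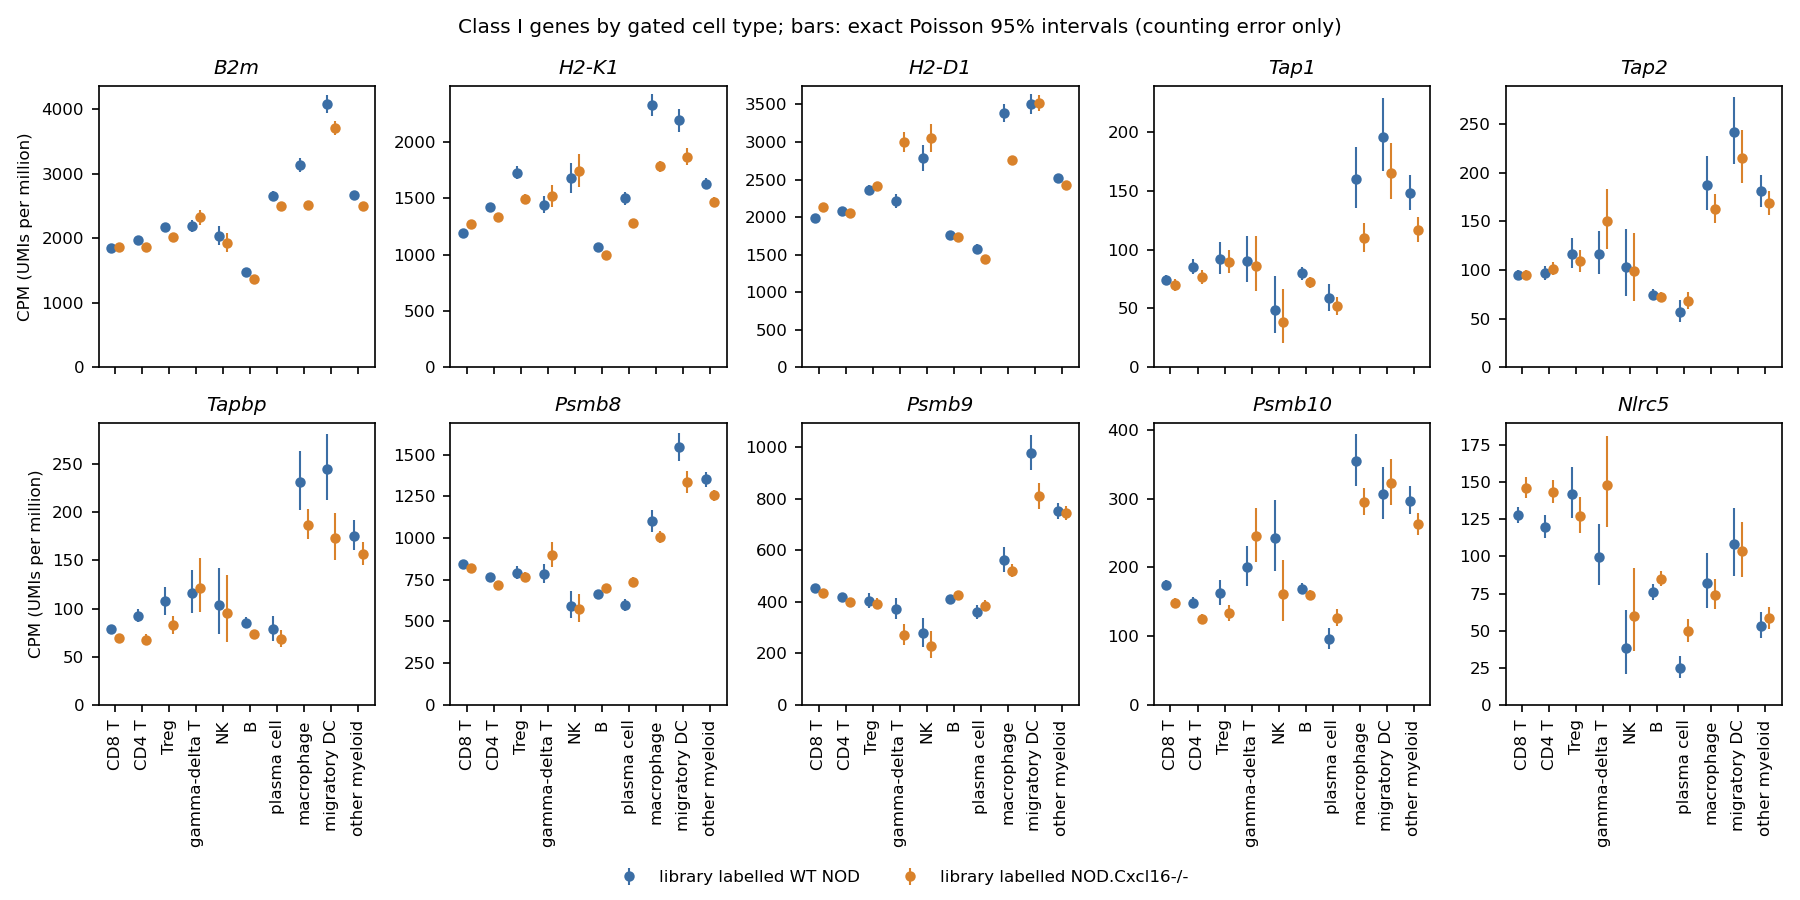
CPM of each gene (y axis, linear from 0) in 10 gated cell types (x axis), for the library labelled WT NOD (blue) and the library labelled NOD.Cxcl16-/- (orange), with exact Poisson 95% intervals. Migratory DCs or macrophages are highest for 9 genes, while Nlrc5 is highest in T cells and lowest in plasma cells, at 24.6 and 49.7 CPM.

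B2m, the invariant light chain, was highest in migratory DCs, at 4073 CPM in WT NOD (exact Poisson interval 3937 to 4213) and 3704 CPM in the library labelled NOD.Cxcl16-/- (3595 to 3815). B cells were lowest, at 1481 and 1374 CPM. The ratio of highest to lowest type was 2.75 and 2.70. Migratory DCs stood above macrophages in both libraries, whereas macrophages, other myeloid cells and plasma cells overlapped, and so did Treg, NK, CD4 T and CD8 T cells.

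H2-K1 was highest in macrophages, at 2328 CPM (2233 to 2426) and 1787 CPM (1739 to 1836), and in migratory DCs, at 2193 and 1872 CPM. It too was lowest in B cells, at 1071 and 996 CPM, where both libraries lay below both values of every other type. CD8 T cells, the cells that read class I, came next at 1198 and 1271 CPM.

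H2-D1 was highest in migratory DCs, at 3505 and 3519 CPM. Macrophages came next in WT NOD, at 3388 CPM. In the other library, at 2757 CPM, they lay below NK cells and gamma-delta T cells (2995 CPM). NK cells, which sense class I on other cells, held 2781 CPM (2613 to 2957) and 3053 CPM (2869 to 3247), above CD8 T cells at 1983 and 2131 CPM. They stood above CD8 T cells for H2-K1 as well, at 1678 and 1745 CPM. Plasma cells were lowest by share of UMIs, at 1579 and 1449 CPM. Immunoglobulin, receptor, mitochondrial, ribosomal, haemoglobin and pancreatic genes took 58.8% and 55.4% of their UMIs, against 34.4% and 32.4% in B cells. Counted per cell, plasma cells held 46.3 and 45.4 H2-D1 UMIs, above the 40.0 and 40.7 of migratory DCs. Their low CPM for other genes below is likewise a share of UMIs and not an amount per cell. Of the summed UMIs of both heavy chains, H2-K1 made up from 33.7% (gamma-delta T, library labelled NOD.Cxcl16-/-) to 42.2% (Treg, WT NOD) outside plasma cells. Plasma cells were at 48.8% (exact binomial interval 47.4 to 50.1) and 47.0% (45.9 to 48.0). Plasma cells also had the most light chain per heavy chain: 0.859 and 0.916 B2m UMIs for each H2-K1 or H2-D1 UMI, against 0.455 and 0.403 in NK cells.

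The transporter genes spread further than the chains. Tap1 ran from 196 and 165 CPM in migratory DCs to 48.9 and 38.8 CPM in NK cells, the NK values resting on 18 and 13 UMIs. Tap2, its partner in the transporter, ran from 242 and 215 CPM in migratory DCs to 57.1 and 68.4 CPM in plasma cells. Both genes had migratory DCs at the top, followed by macrophages and other myeloid cells, which overlapped and changed places between the libraries. NK cells had 0.474 and 0.394 Tap1 UMIs per Tap2 UMI, while B cells had 1.07 and 1.00.

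Tapbp, the tapasin gene, was highest in macrophages (232 and 187 CPM) and migratory DCs (245 and 174 CPM), which overlapped. Its low end was flat: NK, Treg, CD4 T, B, CD8 T and plasma cells could not be set in an order that both libraries kept, and the lowest mean was that of plasma cells at 78.3 and 68.7 CPM.

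Among the immunoproteasome subunits, Psmb8 was the most abundant in all 10 types. It reached 1544 and 1335 CPM in migratory DCs and 1352 and 1256 CPM in other myeloid cells, and was lowest in NK cells at 595 and 577 CPM. Psmb9 followed the same order at the top, with 979 and 809 CPM in migratory DCs, 752 and 744 CPM in other myeloid cells and 277 and 230 CPM in NK cells. Psmb10 was higher in macrophages, at 354 and 295 CPM, than in T cells, and lowest in plasma cells at 95.7 and 126.9 CPM. In the cross-presenting cDC1, a gate of 37 and 58 cells, Psmb8 stood at 2003 and 1775 CPM and Psmb9 at 1122 and 984 CPM, above migratory DCs, while B2m there was at 1688 and 1980.4 CPM, below them.

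Each induced subunit can be set against the constitutive subunit whose place it takes: Psmb8 against Psmb5, Psmb9 against Psmb6, Psmb10 against Psmb7. The induced gene held most of the UMIs of its pair in all 10 types and both libraries. Psmb8 made up 90.9% (exact binomial interval 89.3 to 92.3) and 89.2% (87.7 to 90.6) of its pair in migratory DCs, and 71.3% (65.9 to 76.3) and 75.1% (69.3 to 80.3) in NK cells. Psmb9 made up 81.8% and 80.0% in migratory DCs and 59.0% and 57.9% in NK cells. Psmb10 did not follow: its share was 80.8% and 76.7% in macrophages, 74.2% and 68.4% in NK cells, and 65.2% and 70.6% in migratory DCs. NK cells therefore had the lowest share for Psmb8 and Psmb9 and not for Psmb10, whose lowest shares were 55.3% (plasma cells, WT NOD) and 54.8% (Treg, library labelled NOD.Cxcl16-/-).

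**Figure D2:**
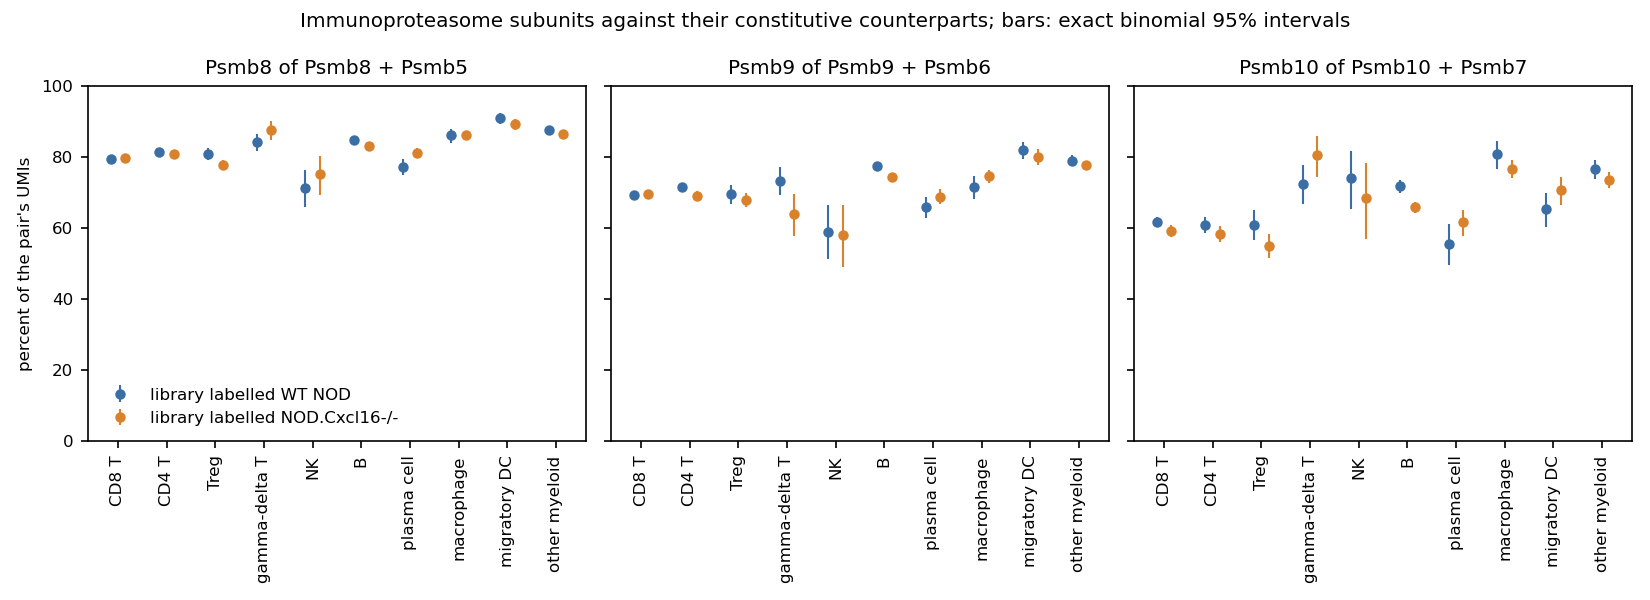
Share of the UMIs of each pair that came from the induced subunit (y axis, percent from 0 to 100) in 10 gated cell types (x axis), for the library labelled WT NOD (blue) and the library labelled NOD.Cxcl16-/- (orange), with exact binomial 95% intervals. For Psmb8 and Psmb9, migratory DCs are highest (90.9% and 81.8% in WT NOD) and NK cells lowest; for Psmb10, macrophages lie above migratory DCs.

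Nlrc5, the transactivator, had a different order from its known targets. It was at 128 CPM (122 to 133) and 146 CPM (139 to 153) in CD8 T cells, at 120 and 144 CPM in CD4 T cells and at 142 and 127 CPM in Treg. In other myeloid cells it was at 53.3 and 58.3 CPM, in NK cells at 38.1 and 59.8 CPM, and in plasma cells at 24.6 and 49.7 CPM. T cells of all kinds and migratory DCs overlapped, and together stood above B cells and macrophages. Across the 10 types, the 45 pairs of the 10 genes had a median correlation of 0.711 in WT NOD and 0.662 in the other library, on log2 CPM, and 40 pairs were above 0 in both. Nlrc5 against B2m was at -0.09 and -0.16. These correlations share libraries and depth and are given without a p.

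The mean profile of the 10 genes over the 20 points (10 types in 2 libraries) was compared with 5693 other genes of at least 20 CPM. The most similar were Bcl2a1b (r = 0.965), Etv6 (0.958), Phf11b (0.945), Klf6 (0.939), Bcl2a1d (0.938), Spred1 (0.934), Synj1 (0.930), Atp6v1g1 (0.928), Pgap2 (0.927) and Dennd5a (0.927). All 10 peaked in migratory DCs, as did the mean profile that they were picked to match. The Bcl2a1 genes are close copies of an anti-apoptotic gene, so their counts are uncertain one from another.

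Between the libraries the 10 genes differed little beside their spread across cell types. A gene was called where the log2 ratio (library labelled NOD.Cxcl16-/- over WT NOD, with 1 CPM added) passed 1.5-fold either way and its exact interval excluded 0. Of 100 combinations of gene and type, 98 had counts high enough to be read this way, and 1 was called. Counts of called genes among the 10, beside the share called among all genes, were 0 in CD8 T cells (1.78%), 0 in CD4 T cells (2.28%), 0 in Treg (5.06%), 0 in gamma-delta T cells (10.3%), 0 of 8 in NK cells (7.42%), 0 in B cells (3.21%), 1 in plasma cells (9.52%), 0 in macrophages (11.5%), 0 in migratory DCs (13.4%) and 0 in other myeloid cells (4.87%). Read against its share, no count sets the 10 genes apart.

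**Figure D3:**
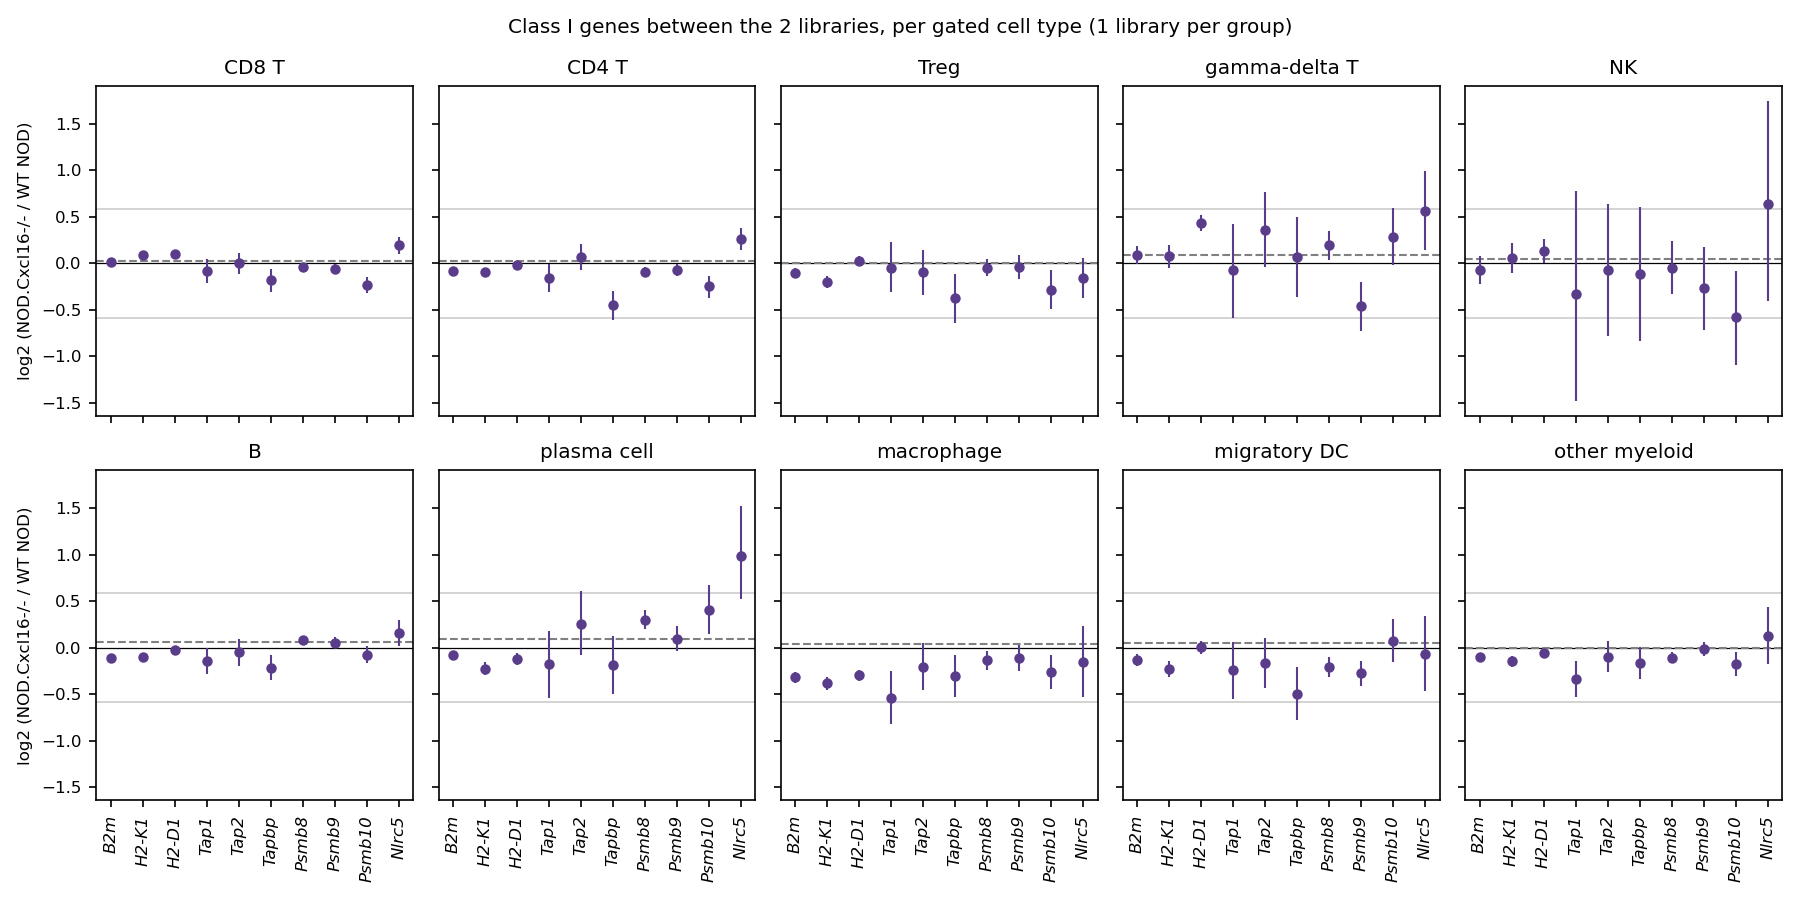
Log2 ratio of the library labelled NOD.Cxcl16-/- over WT NOD (y axis) for each of the 10 genes (x axis) in each cell type (panels), with exact 95% counting intervals. The dashed line is the median of all tested genes, grey lines mark 1.5-fold. All 10 points lie below 0 in macrophages, and Nlrc5 in plasma cells is the 1 tested point past 1.5-fold whose interval excludes 0.

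In macrophages all 10 genes were lower in the library labelled NOD.Cxcl16-/-, 7 of them with an interval below 0, and the median log2 ratio was -0.28. Over all 6574 genes tested there the median was 0.04 and 45.9% were lower. B2m went from 3133 to 2509 CPM (log2 ratio -0.32, interval -0.38 to -0.26). H2-K1 went from 2328 to 1787 CPM (-0.38, -0.45 to -0.31) and H2-D1 from 3388 to 2757 CPM (-0.30, -0.36 to -0.24). Each chain differed beyond counting error and by less than 1.5-fold.

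Tap1 had the lowest ratio in macrophages, from 159.6 to 109.7 CPM (-0.54, -0.82 to -0.26). Psmb9 (-0.11), Nlrc5 (-0.15) and Tap2 (-0.21) had intervals that included 0. Counted per cell the picture was flatter: a macrophage held 36.2 B2m UMIs on average in either library, 26.9 and 25.8 H2-K1 UMIs, 2.68 and 2.70 Tapbp UMIs, and 1.85 and 1.58 Tap1 UMIs. These per-cell means did not come at equal depth: a macrophage had 11565 UMIs on average in WT NOD and 14421 in the other library, while the medians were 12532 and 12194.

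The summed level of the myeloid lineage markers used to gate the macrophages was lower as well, at 21479 and 18736 CPM. So was the share of cells with 3 or more UMIs of strongly interferon-induced genes, 42 of 84 and 76 of 203. The part of either in the result was not tested. Other measures were close in the libraries. Endocrine transcripts were at 8064 and 8328 CPM with none of their markers at 0, exocrine markers were all at 0 in WT NOD and summed to 1.02 CPM in the other library, and cycling cells numbered 28 of 84 and 70 of 203. Without the interferon-high cells the median log2 ratio of the 10 genes was -0.25, and without the cycling cells it was -0.32.

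Migratory DCs had 8 of the 10 genes lower, with a median of -0.19 against 0.05 for all genes there. Tapbp went from 245 to 174 CPM (-0.49, -0.78 to -0.21) and Psmb9 from 979 to 809 CPM (-0.28, -0.41 to -0.14), while H2-D1 was at 3505 and 3519 CPM (0.01, -0.06 to 0.07). Other values differed in this gate too, and their part was not tested. The summed myeloid lineage markers were at 44.5 and 116 CPM, with 1 of 4 at 0 in WT NOD, and endocrine transcripts were at 184 and 336 CPM, with 1 of 5 at 0 in the other library. Irf8, a transcription factor of dendritic cell development, went from 616 to 252 CPM (-1.28, -1.50 to -1.08). It was called lower, beside 5.78% of all genes called lower there. Other myeloid cells had 9 of 10 lower, 6 with an interval below 0, beside 50.4% of all genes lower. Their median was -0.10 against -0.00 for all genes. Tap1 was again lowest there, at 148 and 117 CPM (-0.34, -0.53 to -0.15).

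Among lymphocytes, the median log2 ratio of the 10 genes was -0.02 in CD8 T cells (all genes 0.03), -0.09 in CD4 T cells (0.02), -0.10 in Treg (0.01), -0.07 in NK cells (0.04) and -0.06 in B cells (0.06). Intervals below 0 numbered 7 of 10 in CD4 T cells, as many as in macrophages, with 1 above 0. They numbered 4 in CD8 T cells, with 3 above 0, and 4 in B cells, with 2 above 0. In Treg 9 of 10 genes were lower, 4 with an interval below 0, beside 48.7% of all genes lower. In gamma-delta T cells the median of the 10 genes was 0.14, beside 0.09 for all genes. There H2-D1 went from 2215 to 2995 CPM (0.44, 0.35 to 0.52) and Psmb9 from 373 to 270.2 CPM (-0.46, -0.73 to -0.20). Over the settings tried these ratios ranged from 0.13 to 0.45 and from -0.57 to -0.04. Clusters named gamma-delta T by their markers held 35 of the 174 gated cells in WT NOD and 52 of the 123 in the other library. Endocrine transcripts in the gate were at 22.6 and 123 CPM. The part of either was not tested.

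Read by gene over the 10 types, Tap1 was lower in the library labelled NOD.Cxcl16-/- in 10 of 10, with 4 intervals below 0, and Tapbp in 9 of 10, with 6 below 0. In CD4 T cells Tapbp was at 92.6 and 67.6 CPM (-0.45, -0.61 to -0.30). B2m was lower in 8 of 10 types and H2-K1 in 7 of 10, each with 7 intervals below 0, while H2-D1 was lower in 5 and higher in 5. Psmb10 was lower in 7 types and higher in 3.

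Nlrc5 was higher in 7 of 10 types, with 5 intervals above 0 and none below. It was at 128 and 146 CPM in CD8 T cells (0.19, 0.10 to 0.29) and at 120 and 144 CPM in CD4 T cells (0.26, 0.14 to 0.38). The plasma cell value was the called one, from 24.6 CPM (44 UMIs) to 49.7 CPM (170 UMIs), a log2 ratio of 0.99 (0.53 to 1.53). It was 0.20 without cycling cells, which were 15 of 61 and 42 of 109 plasma cells, and 0.18 when plasma cells were taken from clusters instead of gates.

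Other genes of the pathway were read from fixed lists. Of 13 further class I heavy chains found in the files, such as the H2-Q and H2-T genes, those with enough counts were tested. In the library labelled NOD.Cxcl16-/- 6 of 6 were lower in macrophages (median -0.24, beside 45.9% of all genes lower), with none called. So were 7 of 7 in B cells (-0.18, 38.7%) and 7 of 7 in CD4 T cells (-0.13, 44.9%), with none called. In Treg 7 of 8 were lower (-0.20, 48.7%). H2-T3 was called there (-1.13, 44 UMIs in WT NOD and 34 in the other library), beside 2.88% of all genes called lower. These heavy chains were higher in 6 of 8 in CD8 T cells (0.08, beside 43.3% of all genes lower). In gamma-delta T cells 6 of 6 were higher (0.31, 39.6%), with none called in either type. H2-Q7 was at -0.34 in macrophages and H2-T23, the Qa-1 heavy chain, at -0.27 in CD4 T cells. The H2-Q genes are near-identical copies and their counts are uncertain.

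The peptide-loading and trimming list had medians above 0, while its genes did not all go 1 way. Its 6 genes were all higher in macrophages (median 0.23) and CD8 T cells (0.23), and 4 of 6 were higher in B cells (0.29). In macrophages Tapbpl (0.08), Canx (0.06) and Erap1 (0.21) had intervals that included 0. The lower ones in B cells were Tapbpl (-0.10) and Erap1 (-0.02), also with intervals that included 0. In migratory DCs 3 of 5 tested genes were higher (median 0.20), while Tapbpl (-0.40) and Canx (-0.30) were lower. Tapbpl was at -0.29 in other myeloid cells, -0.20 in Treg and 0.08 in CD8 T cells. All of these Tapbpl and Canx intervals included 0. Hspa5, a chaperone of the endoplasmic reticulum, went from 1071 to 1631 CPM in macrophages (0.61, 0.51 to 0.71). It was called there, beside 7.2% of all genes called higher. Pdia3, the disulfide isomerase of the loading complex, went from 162 to 263 CPM in B cells (0.69, 0.61 to 0.79). That value was also called, beside 2.4% of all genes called higher. In CD8 T cells Pdia3 went from 246 to 332 CPM (0.43). Calr, the calreticulin gene, was at 369 and 438 CPM in macrophages (0.25, 0.08 to 0.42).

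Interferon-induced genes were read beside these values because interferon is known to raise class I genes. In macrophages all 7 tested genes of the type I interferon list were lower in the library labelled NOD.Cxcl16-/-, 4 of them called, with a median of -0.65. Among all genes, 4.32% were called lower there. Irf7, an amplifier of type I interferon responses, went from 374 to 83.0 CPM there (-2.16, -2.41 to -1.93) and from 225 to 33.0 CPM in migratory DCs (-2.73, -3.30 to -2.26). In migratory DCs 6 of 6 were called lower (median -0.94, beside 5.78% of all genes called lower), in Treg 4 of 4 (-2.01, 2.88%), in CD8 T cells 3 of 4 (-0.89, 0.602%) and in CD4 T cells 3 of 3 (-0.93, 1.41%). The 10 class I genes in the same types were at -0.19, -0.10, -0.02 and -0.09. Not all other types shared this direction. In other myeloid cells 2 of 7 were called lower and 2 higher (-0.15), beside 3.01% and 1.87% of all genes. The higher ones were Ifit1 (1.17) and Rsad2 (1.21). In plasma cells 1 of 2 was called higher, Isg15 at 7.27 and 72.8 CPM, beside 6.75% of all genes.

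The interferon-gamma list was lower in 8 of 8 genes in macrophages (median -0.29, none called). In migratory DCs 3 of its 8 genes were called lower (median -0.31), beside 5.78% of all genes. Elsewhere its calls were higher: 3 of 7 in plasma cells (median 0.36, beside 6.75% of all genes called higher) and 2 of 7 in gamma-delta T cells (0.43, 7.26%). In CD8 T cells (0.12, 1.18%) and B cells (0.04, 2.4%) 1 of 8 each was called higher. Cxcl9, a chemokine gene, was the one called in CD8 T cells (0.62) and in B cells (1.61). Among the listed regulators, Irf1, a direct activator of class I promoters, was at 488 and 413 CPM in macrophages (-0.24) and at 363 and 389 CPM in CD8 T cells (0.10). Of the 11 regulators tested in macrophages, 8 were higher and 3, Irf1 among them, lower (median 0.17, none called). In CD8 T cells 6 of 10 were higher and 4 lower (0.12, none called). Constitutive proteasome genes and proteasome activators, 6 genes, had a median of -0.14 in macrophages and 0.18 in B cells, with none called.

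**Figure D4:**
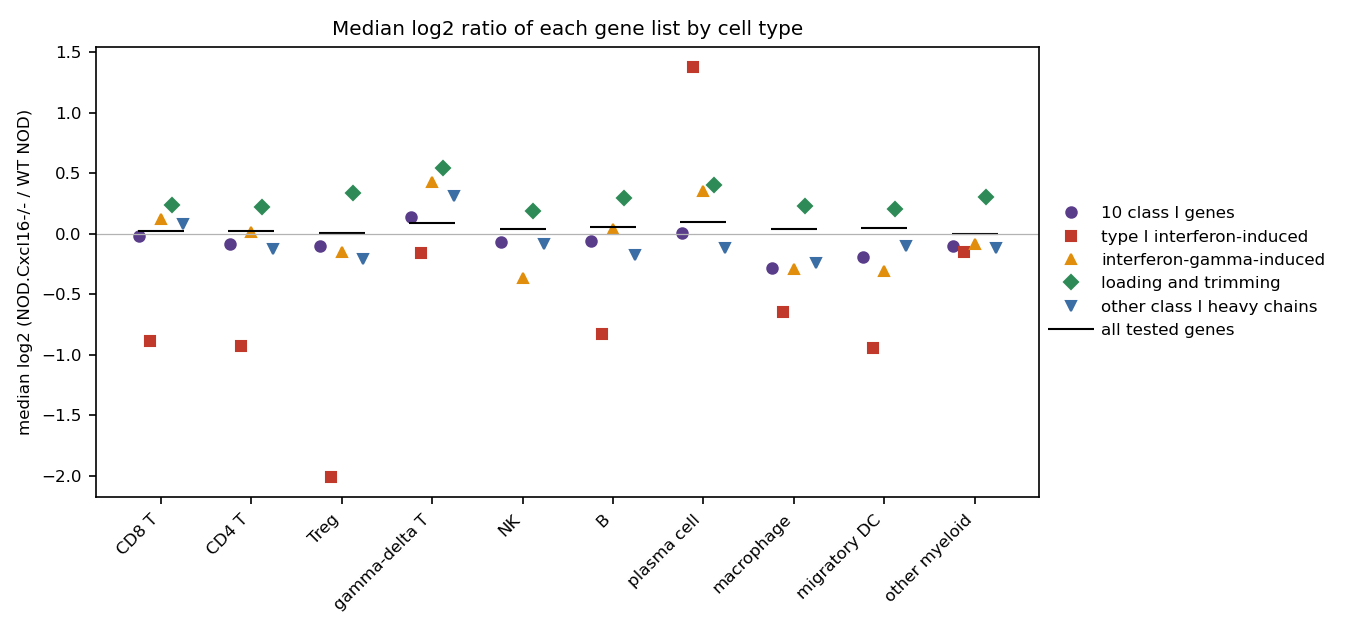
Median log2 ratio of the library labelled NOD.Cxcl16-/- over WT NOD (y axis) for the 10 class I genes, 4 other gene lists and all tested genes (black bars), by cell type (x axis). The type I interferon list lies lowest in 8 of the 9 types where it has a tested gene, at -0.65 in macrophages, with plasma cells, which had 2 tested genes, the exception. The class I genes stay between -0.28 and 0.14.

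Within a gate, cells with 3 or more UMIs of strongly interferon-induced genes (Ifit1, Ifit3, Rsad2 and others) had more class I transcript in CD8 T, CD4 T, B and other myeloid cells. They were 77 of 1974 CD8 T cells in WT NOD and 17 of 1330 in the other library. In the 77 WT NOD cells all 10 genes were higher than in the rest, by a median log2 of 0.45 where all genes had -0.04. Tap1 was at 157 against 70.3 CPM (1.15, 0.87 to 1.44), Tapbp at 138 against 75.8 CPM (0.85, 0.55 to 1.16) and B2m at 2398 against 1821 CPM (0.40, 0.33 to 0.47). Tap2, the partner of Tap1, was at 123 against 93.6 CPM (0.39, 0.06 to 0.70), close to the ratios of the chains. In CD4 T cells, 40 interferon-high cells of WT NOD had 8 of 10 genes higher (median 0.42). The exceptions were Tap1 (-0.04, -0.57 to 0.44) and Nlrc5 (-0.002).

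In WT NOD B cells, 22 of 1816 were interferon-high, with 9 of the 10 genes higher and a median of 0.81. Psmb10 was at 381 against 165 CPM (1.20, 0.83 to 1.56) and H2-D1 at 3143 against 1744 CPM (0.85, 0.72 to 0.97). Tap1 in these B cells was at 0.38, with an interval that included 0 (-0.37 to 1.06). Other myeloid cells had all 10 genes higher in both libraries (median 0.24 and 0.16). In macrophages 7 of 10 were higher in WT NOD (median 0.10) and 4 of 10 in the library labelled NOD.Cxcl16-/- (-0.02), where H2-K1 (-0.09, -0.17 to -0.01) and H2-D1 (-0.08, -0.14 to -0.01) were lower in the interferon-high cells. In WT NOD migratory DCs 6 of 10 were higher (0.06). Interferon-high cells had a median of 6970 UMIs in CD8 T cells against 5592 in the rest. The cut is a range and not a type: 71 further CD8 T cells in WT NOD lay 1 UMI under it.

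Cycling cells, those with 2 or more UMIs of Mki67, Top2a and Birc5, had a split pattern in CD8 T and CD4 T cells: chains, transporter, tapasin and Nlrc5 took a smaller share of UMIs, and Psmb8 and Psmb9 a larger one. In CD8 T cells, 517 cycling cells in WT NOD had 938 CPM of H2-K1 against 1469.7 CPM in the other 1457 cells (-0.65, -0.69 to -0.61). In the library labelled NOD.Cxcl16-/-, 254 cycling cells had 994 against 1473 CPM (-0.57, -0.62 to -0.52). B2m was at -0.46 and -0.41, H2-D1 at -0.44 and -0.45, and Nlrc5 at -0.73 (96.5 against 160.4 CPM) and -0.72. Tap2 was at -0.27 and -0.36. Tap1 was at -0.28 (-0.44 to -0.12) in WT NOD and at -0.12 (-0.33 to 0.08) in the other library, where its interval included 0.

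Psmb9 was at 515 against 387 CPM in cycling CD8 T cells of WT NOD (0.41, 0.34 to 0.48) and 0.45 in the other library, and Psmb8 was at 0.26 and 0.31. The constitutive subunits had larger ratios than the subunits that replace them: Psmb5 was at 274 against 159 CPM (0.78, 0.69 to 0.88) and at 0.73 in the other library, and Psmb6 was at 0.60 and 0.56. Psmb10 was at -0.07 and -0.03, with intervals that included 0. In CD4 T cells, B2m, both heavy chains, Tap1, Tap2, Tapbp and Nlrc5 had intervals below 0 in both libraries, Psmb8 and Psmb9 above 0, and Nlrc5 was at -0.94 and -0.84. Cycling Treg, 47 and 68 cells, followed in part. B2m and both heavy chains had intervals below 0 in both libraries, with H2-K1 at -0.42 and -0.80. In WT NOD, Tap1, Tap2 (0.01), Tapbp, Nlrc5 (-0.10), Psmb8 (0.03) and Psmb9 (0.19) had intervals that included 0. In the other library Nlrc5 was at -0.60, Psmb8 at 0.29 and Psmb9 at 0.38, with intervals that excluded 0.

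Cycling B cells shared the higher Psmb8 (0.79 and 0.72) and Psmb9 (0.56 and 0.65). Their chains differed between the libraries: H2-D1 was at -0.13 (-0.20 to -0.07) in WT NOD and -0.72 (-0.77 to -0.66) in the other, and B2m at -0.02 and -0.39, a difference that was not tested. Cycling cells are deeper, with a median of 13319 UMIs against 5055 in WT NOD CD8 T cells, so their absolute UMIs of class I genes were higher: 26.2 against 12.2 B2m UMIs per cell. With 8000 or more UMIs required on both sides, chosen after the values had been seen, H2-K1 in CD8 T cells was at -0.52 and -0.44, Nlrc5 at -0.52 and -0.36, and Psmb9 at 0.29 and 0.32. Tap1 there was at -0.21 and -0.14, with intervals that included 0. Depth still differed after this cut. Medians in CD8 T cells were 17604 against 10019 UMIs in WT NOD and 17862 against 10345 in the other library. For CD4 T cells they were 19724 against 10889 and 18961 against 10912. In CD4 T cells the same requirement left Psmb8 at 0.09 and 0.07, with intervals that included 0, and Psmb9 at 0.22 (0.08 to 0.35) and 0.09 (-0.03 to 0.22), while H2-K1 was at -0.41 and -0.49.

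**Figure D5:**
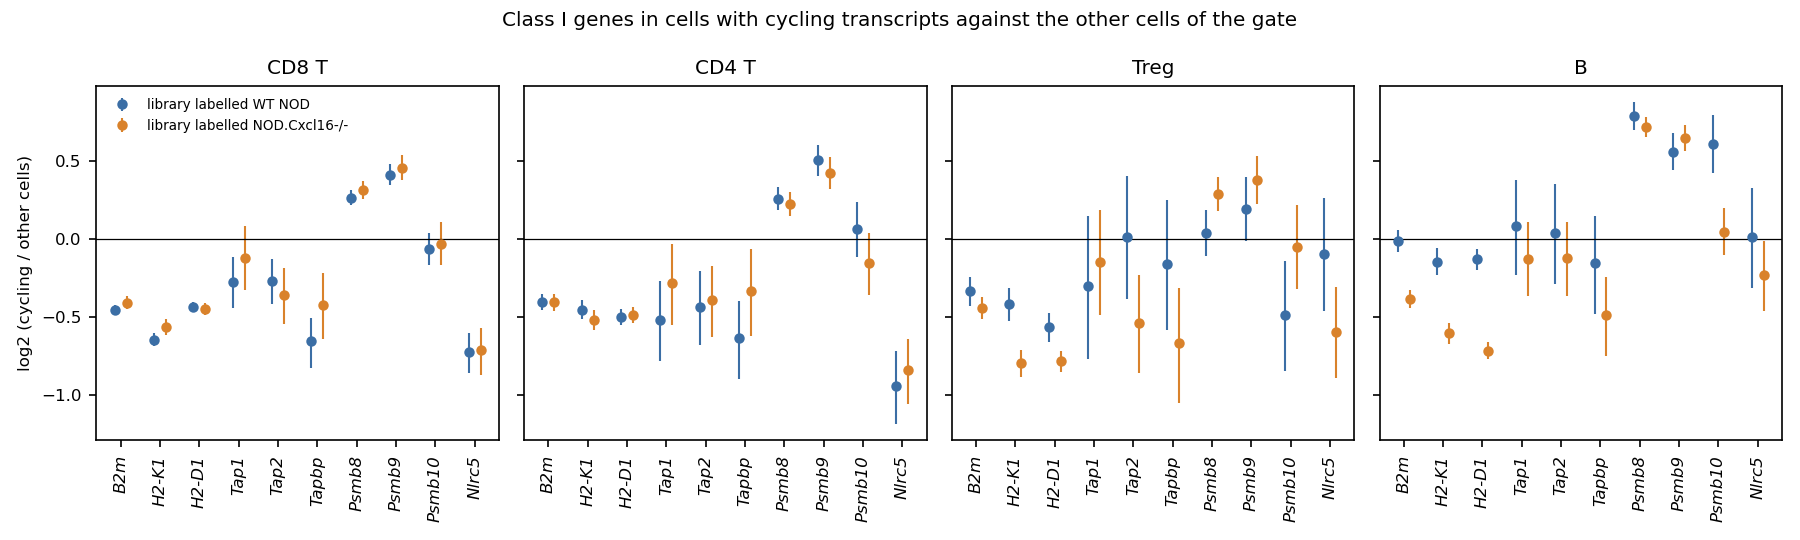
Log2 ratio of CPM in cycling over other cells of the same gate (y axis) for each gene (x axis), in CD8 T, CD4 T, Treg and B cells (panels), for the library labelled WT NOD (blue) and the library labelled NOD.Cxcl16-/- (orange), with exact 95% counting intervals. In CD8 T cells the heavy chains and Nlrc5 lie below 0 (Nlrc5 at -0.73 and -0.72) and Psmb8 and Psmb9 above 0 in both libraries.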

How the data were processed

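Gene-by-barcode UMI counts of 2 libraries were used as the authors deposited them. Reads had been counted with Cell Ranger 7.0.1 against mm10, per the file headers and the submitters' processing notes; the annotation release and the handling of introns are not given in the sources used here. Barcodes with at least 500 genes and at most 10% mitochondrial UMIs were kept, and Scrublet (scanpy 1.11.5) marked doublets at 0.8% per 1000 barcodes (11.1% of WT NOD and 8.44% of NOD.Cxcl16-/- barcodes). Gates required markers of a lineage and at most 1 UMI, or 3 per 10000, of the others. Gate thresholds were revised with cell counts and marker levels in view. UMIs were summed per gate and library and scaled to CPM. Intervals are exact (Poisson for levels, Clopper-Pearson for shares, conditional binomial for ratios, 95%). Genes with a mean of at least 10 CPM and 50 UMIs in all were compared. The code was tested on simulated data. Every one of the 10 genes is named; further genes come from 6 lists of 57 genes, 54 of them in the files. These genes and lists were chosen with earlier results of these data known. TMM factors came from edgeR 4.0.16. The 12 other settings tried changed cell types, gates, filters, depth, scaling, cell state and pseudocount. Some items are not reported here.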

Additional observations from a re-analysis of the deposited data

How the results depend on the processing

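Each of the 100 log2 ratios (10 genes in 10 cell types) was recomputed under 11 alternatives; with 1 library per group no replicate could be left out. Of the 1100 values, 964 lay within the counting interval of the value in the text and 91 had the other sign. The median of the 10 genes stayed below 0 in macrophages (-0.38 to -0.17), in CD4 T cells (-0.10 to -0.05) and in B cells (-0.11 to -0.01). In CD8 T cells it lay between -0.07 and 0.00. The number of genes lower in macrophages was 9 or 10 under every alternative, that in migratory DCs 6 to 9, the number of types with lower Tap1 7 to 10, and that with lower Tapbp 6 to 10. The share of all genes past 1.5-fold depended on the CPM minimum: with none it was 4.13% in CD8 T cells, 4.64% in CD4 T cells and 6.03% in B cells, since genes under 10 CPM then enter. The median of the 10 genes in plasma cells was 0.44 under stricter gates, against 0.01. Gates and clusters overlapped little for migratory DCs: clusters of that name held 27 of the 73 gated cells in WT NOD. In the other library they held 26 of the 102. The called Nlrc5 value in plasma cells ranged from 0.18 to 1.62 and was under 1.5-fold with clusters in place of gates and without cycling cells; the cause was not tested. Depth limits NK cells most, where Tap1 and Nlrc5 had under 50 UMIs in both libraries together. No paired analysis was possible because each group has 1 library and the result comes from no test.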

Other observations

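Conventional and plasmacytoid dendritic cells were gated in numbers under 50 cells in at least 1 library and are given as values. In cDC1 (37 and 58 cells), the cross-presenting type, Tap2 was at 176 CPM in WT NOD and 229 CPM in the library labelled NOD.Cxcl16-/-, and Tap1 at 169 and 176 CPM. In cDC2 (38 and 84 cells), Psmb8 was at 1416 and 1226 CPM and Nlrc5 at 73.2 and 80.8 CPM. Plasmacytoid DCs (66 and 48 cells) had 2001 and 1911 CPM of H2-K1 and 206 and 217 CPM of Tapbp, near macrophages, but 74.7 and 97.8 CPM of Tap1, nearer to lymphocytes. The median log2 ratio of the 10 genes was 0.07 in cDC1, 0.02 in cDC2 and -0.06 in plasmacytoid DCs.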
